A study of Homo sapiens with 12 samples.

Results

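Gene expression was compared between NUGC-4 cells treated with crizotinib alone and NUGC-4 control cells, with 3 RNA sequencing libraries in each group, 6 of the 12 libraries of the series. NUGC-4 is an established human cell line that the labels call a diffuse gastric cancer line of genotype WT, and this line and genotype were shared by every group. Crizotinib was given at 1 µM for 24 h. The control label gives the same 24 h and names no vehicle. The other 6 libraries received 1 µM IN10018, an inhibitor of focal adhesion kinase (FAK, the product of PTK2), alone or with crizotinib, and they entered the common fit. One line was studied, and no label ties a library to a culture of its own. Each p-value therefore rests on library-to-library spread, which may be technical.

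Crizotinib occupies the ATP pocket of the receptor tyrosine kinases MET, ALK and ROS1. Activated MET, the receptor for hepatocyte growth factor, recruits adaptors and the phosphatase PTPN11 and signals through RAS, RAF, MEK and ERK and through PI3-kinase and AKT. ERK activates factors already present at the promoters of immediate early genes, such as FOS and EGR1, which are transcribed within minutes of a growth signal. Continued signalling raises D cyclin and CDK activity, which releases E2F factors from the retinoblastoma proteins so that genes of DNA replication are transcribed.

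Total reads ran from 14361383 to 20489708 in control and from 15634366 to 16845001 with crizotinib. The crizotinib libraries were unequal. Mitochondrially encoded genes held 13.3, 5.21 and 9.46% of the reads of crizotinib libraries 1, 2 and 3, against 11.2, 11 and 11.9% in control. On the first principal component of the 6 libraries, which held 66.6% of the variance, crizotinib libraries scored 14.3, 73.1 and 26.8 and control libraries -44.1 to -28.5. The median within-group SD of log2 CPM was 0.268 with crizotinib and 0.113 in control. Crizotinib library 2 thus stood apart, and results that rest on it are given with and without it.

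The labelled gastric epithelial identity was checked against markers. The keratin genes KRT8, KRT18 and KRT7 were read at 1305, 579 and 203 CPM (counts scaled to the library total) in control, and the epithelial adhesion gene EPCAM at 17.3. KRT19 and CEACAM5, also epithelial markers, had 0 reads in the 6 libraries, and 6 of 42 listed gastric and secretory genes passed the filter on low counts. The collagen gene COL3A1, a fibroblast marker, stood at 5659 CPM of the totals and the matrix gene POSTN at 628, whereas COL1A2 stood at 0.0192 and FAP and THY1 had 0 reads in these 6 libraries. The leukocyte markers CD3E and CD3D were at 0 and PTPRC was at 0.154 CPM, whereas CD14 was at 19 CPM of the totals in control and 30.7 with crizotinib and made up most of the leukocyte sum. CD14 (0.55 ± 0.12) and NKG7 (2.01 ± 0.49), the 2 leukocyte markers tested, were called higher, CD14 not with an offset for GC content and length (0.14). NKG7 had only 1, 4 and 3 reads in control and 9, 11 and 14 with crizotinib. It was tested in 14 of the 17 alternative analyses. The description label speaks of adipogenic differentiation; ADIPOQ and LPL had 0 reads, while FABP4 stood at 67.0 and PPARG at 36.7 CPM. Summed over each marker list, control and crizotinib ranged from 2079 to 2136 and 2016 to 3751 for 15 epithelial markers, and from 6076 to 6430 and 5669 to 7414 for 10 fibroblast markers. The sums were 21.5 to 25.4 and 28.5 to 31.1 for 9 endothelial, 18.1 to 22.5 and 29.6 to 35.7 for 11 leukocyte, and 106 to 111 and 109 to 154 for 10 adipocyte markers. Their part in the results was not tested.

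Levels below are CPM with each library's total multiplied by its TMM factor, the scaling of edgeR, and changes are log2 fold changes ± SE from an edgeR quasi-likelihood fit of all 12 libraries. A gene was called where its Benjamini-Hochberg adjusted p was under 0.05. Of 17096 genes tested, 37.6% were called, 3421 higher (20%) and 3014 lower (17.6%), and 8379 had an unadjusted p under 0.05. At least 2-fold changes were fewer and less even, with 1205 genes higher (7.05%) and 246 lower (1.44%). Scaling by DESeq2 size factors gave 2943 higher and 3511 lower, and by library totals 4827 and 1948, so the balance of directions depended on the scaling. The median of all genes tested was 0.084 and rose to 0.208 with library totals. Without crizotinib library 2, 1770 genes were called higher and 1876 lower. Leaving out control library 1 gave 1766 and 1372, and leaving out control library 3 gave 1354 and 2331.

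Called genes differed in base composition and length. Among protein-coding genes with a value, those called higher had a median GC content of 57.8% and a median longest transcript of 2791 bases, those called lower 42% and 5023 bases, and all tested 48.6% and 3678 bases. With an offset for both properties 2541 genes were called higher and 2935 lower, 1864 and 1958 of them calls of the main fit in the same direction. Through all 17 alternative analyses that tested them, 1021 genes kept a higher call and 1125 a lower call. The gene lists below were read against these shares, and the members named first are mainly ones that kept their call.

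Of the crizotinib targets MET was read at a high level, ALK at a low level and ROS1 not at all. MET (ENSG00000105976, chromosome 7, 116672390 to 116798386, GRCh38) stood at 788, 700 and 746 CPM in control and at 435, 282 and 381 CPM with crizotinib. The groups did not overlap, as for 25.1% of all genes in that direction (26.3% in the other), and crizotinib library 2 was the lowest. The change of MET was -1.03 ± 0.16 (adjusted p = 0.0016), between -1.15 and -0.70 over the alternatives. ALK was at 4.34, 4.17 and 3.46 CPM in control and 2.84, 2.63 and 1.65 CPM with crizotinib (-0.74 ± 0.21), which lost its call when control library 1 (-0.66) or crizotinib library 3 (-0.52) was left out. ROS1 had no read in any of the 12 libraries, a count of 0 that allows up to 0.0152 CPM of the totals (3 counts over the 12 libraries, counting error only). MST1R, the receptor closest to MET in the kinome, was called higher (0.33 ± 0.11, adjusted p = 0.037), but only 5 of 17 alternatives kept the call.

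Of 26 genes for the MET ligand, its activators and its adaptors, 23 were tested, and 11 fell, 3 rose and 9 were not called (median -0.40). Without crizotinib library 2 the counts were 9 and 2. PTPN11, the phosphatase SHP2 that couples receptors to RAS, went from 296, 274 and 304 CPM to 198, 165 and 196 CPM (-0.65 ± 0.12, adjusted p = 0.0033). CBL, the ubiquitin ligase that sends MET to degradation, fell from 110, 101 and 104 CPM to 74.2, 36.9 and 52.9 CPM (-0.94 ± 0.22, adjusted p = 0.0074). In both genes every crizotinib library lay below every control library, with library 2 the lowest. The PI3-kinase catalytic subunits PIK3CA (-0.76 ± 0.16) and PIK3CB (-0.63 ± 0.15) also fell. The ligand gene HGF (-0.13 ± 0.29) and the adaptor GAB1 (-0.60 ± 0.32) were not called, both with overlapping groups. SPINT1, an inhibitor of the proteases that activate hepatocyte growth factor, rose by 0.56 ± 0.14 (adjusted p = 0.011), a call lost with the GC and length offset (0.18) and without control library 3 (0.44).

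Other receptor kinases and their ligands moved both ways, with 13 lower, 5 higher and 18 not called among 36 tested of 51 (median 0.055). These shares were 36.1% lower and 13.9% higher, against 17.6% and 20% of all genes. EGFR, the epidermal growth factor receptor, went from 901, 782 and 858 CPM to 558, 245 and 410 CPM (-1.07 ± 0.22, adjusted p = 0.0047). KIT, the stem cell factor receptor, fell from 4.27, 3.75 and 3.67 CPM to 1.9, 0.97 and 1.72 CPM (-1.35 ± 0.25, adjusted p = 0.0036). Its ligand gene KITLG fell too (-0.85 ± 0.22, adjusted p = 0.012). MERTK, a receptor for GAS6, fell evenly, from 2.47, 2.78 and 2.77 CPM to 1.24, 1.26 and 1.40 CPM (-1.04 ± 0.26, adjusted p = 0.0095), while GAS6 itself rose by 0.78 ± 0.18 (adjusted p = 0.0072). The angiogenic factor VEGFA rose from 133, 129 and 131 CPM to 225, 187 and 209 CPM (0.66 ± 0.10, adjusted p = 0.0013), with no overlap of the groups and library 2 the nearest to control.

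Immediate early genes were mostly lower. Of 40 listed, 36 were tested, and 25 fell, 1 rose and 10 were not called, with a median change of -0.725 against 0.084 for all genes. Without crizotinib library 2, 23 fell and 1 rose. With the GC and length offset, 31 fell and 1 rose. EGR2, EGR3, EGR4 and ARC did not pass the filter. Promoter letters of 5 of those that fell are shown because ERK and calcium or cAMP signals can reach immediate early genes through a CRE or a CArG box. A CRE is the site of CREB and ATF factors, and a CArG box is the site of serum response factor. The runs are the 150 bases before the RefSeq start (GRCh38.p14, coding strand, 5′ to 3′), with CArG boxes and every TGACGT on either strand, part of the palindromic CRE TGACGTCA, in capitals. On the opposite strand TGACGT reads as ACGTCA.
EGR1 chr5:138465329-138465478: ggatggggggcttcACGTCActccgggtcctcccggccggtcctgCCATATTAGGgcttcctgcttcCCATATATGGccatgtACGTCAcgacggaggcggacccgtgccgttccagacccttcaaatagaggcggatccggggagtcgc
FOS chr14:75278678-75278827: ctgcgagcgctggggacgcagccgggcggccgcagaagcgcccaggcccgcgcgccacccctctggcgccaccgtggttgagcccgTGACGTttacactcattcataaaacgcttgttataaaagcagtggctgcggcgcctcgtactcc
FOSB chr19:45467846-45467995: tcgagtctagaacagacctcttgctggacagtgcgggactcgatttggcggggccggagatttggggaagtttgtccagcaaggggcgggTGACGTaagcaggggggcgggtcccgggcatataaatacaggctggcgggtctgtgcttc
PPP1R15A chr19:48872271-48872420: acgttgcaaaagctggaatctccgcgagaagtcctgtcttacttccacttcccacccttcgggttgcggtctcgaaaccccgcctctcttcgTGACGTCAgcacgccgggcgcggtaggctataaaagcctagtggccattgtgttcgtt
DUSP1 chr5:172771196-172771345 (minus strand): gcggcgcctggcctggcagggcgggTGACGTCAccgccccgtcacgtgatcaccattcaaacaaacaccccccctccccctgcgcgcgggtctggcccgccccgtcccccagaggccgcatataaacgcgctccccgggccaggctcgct

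Of the runs shown, only that of EGR1 held a CArG box, and sites farther upstream are not shown. In the EGR1 window the CArG boxes started 105 and 83 bases before the start and the TGACGT letters 136 and 67 bases before it. They started 64 bases before the start in FOS and 60 in FOSB, and the full TGACGTCA lay 58 to 51 bases before it in PPP1R15A and 125 to 118 in DUSP1. Over windows of 250 bases before to 50 after the start, 10 of 27 immediate early promoters found in RefSeq (37%) held TGACGT on either strand, and 11.5% of 10681 promoters of tested genes did. TGACGTCA was in 4 of 27 (14.8%) and 3.17%, and a CArG box in 2 of 27 (7.41%) and 1.05%. The AP-1 letters TGACTCA were in 1 of 27, near the 3.2% of tested genes. TGACGT was also in 25% of G2 and mitosis, 19% of S phase and 18.2% of homologous recombination and Fanconi promoters. In the other lists searched its share was 6.52 to 11.1%. TGACGTCA was in 11.5%, 7.14% and 9.09% of those G2 and mitosis, S phase and homologous recombination promoters, and in 0 to 2.17% of the others. In all, 9 motifs were searched over 7 lists, and TGACGT, the windows and the capitals were chosen after the sequences had been seen, so these shares are descriptions.

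FOSB, a partner of JUN in AP-1, stood at 369, 567 and 514 CPM in control and at 24.6, 27.2 and 18 CPM with crizotinib (-4.38 ± 0.18, adjusted p = 1.6e-08). FOS, its close relative, went from 818, 969 and 1047 CPM to 168, 145 and 120 CPM (-2.71 ± 0.19, adjusted p = 2.5e-06). In both the groups were far apart, and crizotinib library 3, not 2, was the lowest. EGR1, a zinc finger factor, went from 63.5, 76.8 and 101 CPM to 18.4, 19.5 and 21.2 CPM (-2.03 ± 0.15, adjusted p = 4.8e-06). The stress factor ATF3 went from 20.9, 26.4 and 23.0 CPM to 0.830, 0.400 and 0.764 CPM (-5.13 ± 0.25, adjusted p = 6.7e-08). PPP1R15A, also called GADD34, which directs a phosphatase to eIF2α, went from 170, 202 and 215 CPM to 18, 31 and 19 CPM (-3.11 ± 0.19, adjusted p = 5.3e-07). In these 5 genes the groups were far apart in every library.

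The nuclear receptor NR4A2 went from 84.7, 121 and 98.9 CPM to 23.8, 22.5 and 22.7 CPM (-2.15 ± 0.13, adjusted p = 7e-07). JUN, the main partner of FOS, went from 43.5, 51.5 and 73.9 CPM to 10.7, 12.7 and 13.4 CPM (-2.20 ± 0.19, adjusted p = 2e-05). The pseudokinase gene TRIB1 fell from 223, 272 and 285 CPM to 46.8, 36.4 and 48.5 CPM (-2.57 ± 0.13, adjusted p = 1.1e-07). In these 3 genes every crizotinib library lay well below the lowest control library. DUSP1, a phosphatase that dephosphorylates MAP kinases, changed by -1.32 ± 0.17, and ZFP36, which destabilises inflammatory mRNAs, by -1.56 ± 0.25. KLF4, a pluripotency factor at low level, fell to 0.356, 0.0571 and 0.382 CPM from 6.51, 4.36 and 5.96 CPM (-4.39 ± 0.39, adjusted p = 2.6e-05). KLF2 (-2.03 ± 0.35) and KLF6 (-1.18 ± 0.14), of the same family, fell as well.

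The family did not move as one. JUNB fell less than JUN (-0.64 ± 0.16), and JUND was not called, with 118, 115 and 111 CPM in control and 66.5, 136 and 87.4 CPM with crizotinib (-0.24 ± 0.23), where the groups overlapped. The factor FOSL2 (-0.26 ± 0.10, adjusted p = 0.058) and IER2 (0.70 ± 0.26, adjusted p = 0.051) lay just outside the threshold. MYC, which drives growth genes, was called at -0.52 ± 0.18 with 107, 99.1 and 104 CPM in control and 99.4, 51.5 and 65.3 CPM with crizotinib. The MYC call was lost without crizotinib library 2 (-0.33) or 3 (-0.43) and without control library 1 (-0.48), 2 (-0.56) or 3 (-0.57). BTG1, an antiproliferative gene, was the member that rose, from 129, 110 and 135 CPM to 172, 186 and 199 CPM (0.57 ± 0.10, adjusted p = 0.0028).

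**Figure D1:**
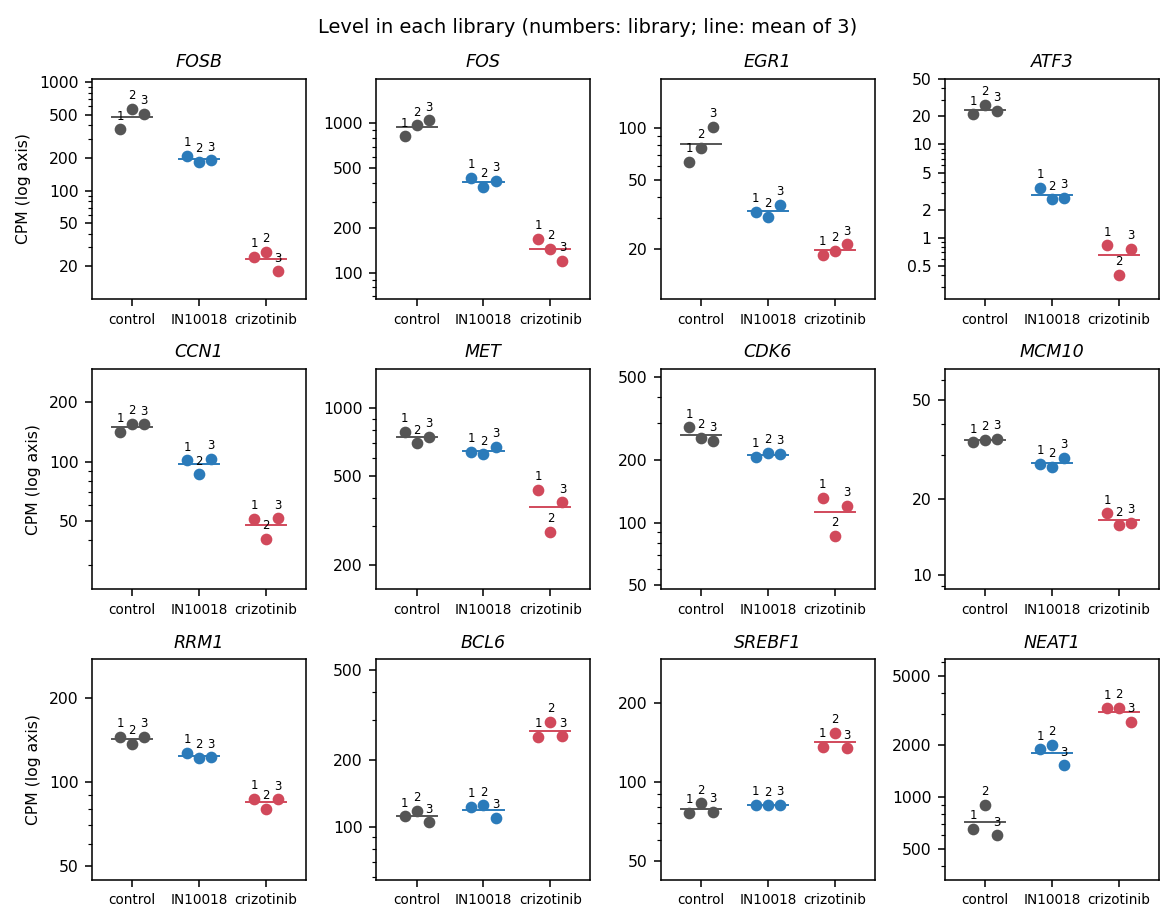
Level of 12 genes in each library, in CPM on a log axis, for control, IN10018 and crizotinib, with 1 point per library (numbered) and a line at the mean of 3. FOSB falls from 369 to 567 CPM in control to 18 to 27.2 CPM with crizotinib, while BCL6 stands at 105 to 118 CPM in control, 110 to 125 CPM with IN10018 and 253 to 294 CPM with crizotinib.

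Genes of ERK output and feedback fell in part. Of 38 tested of 39, 20 fell, 2 rose and 16 were not called (median -0.42), and 15 fell and 0 rose without crizotinib library 2. PHLDA1, an ERK-induced pleckstrin homology gene, went from 46.0, 45.3 and 50.5 CPM to 29.1, 19.9 and 25.2 CPM (-0.94 ± 0.13, adjusted p = 0.0012). The RAS pathway inhibitors SPRED1 (-0.89 ± 0.16) and SPRY2 (-0.76 ± 0.15) and the ETS factor ETV5 (-0.50 ± 0.12) fell. DUSP6, the ERK phosphatase often read as a gauge of ERK activity, was at 255, 241 and 283 CPM in control and 237, 236 and 256 CPM with crizotinib (-0.10 ± 0.09, adjusted p = 0.41). DUSP4 (0.11 ± 0.11, adjusted p = 0.43), ETV4 (-0.20 ± 0.14, adjusted p = 0.27) and CCND1 (-0.10 ± 0.12, adjusted p = 0.51) were not called either. The groups overlapped in each of these 4 genes.

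Of 40 tested genes of the RAS, RAF, MEK, ERK, PI3-kinase and mTOR chain, 19 fell and 7 rose (12 and 3 without crizotinib library 2). MAPK3, which encodes the kinase ERK1, differed by 0.12 ± 0.10 (adjusted p = 0.36). MTOR fell by 0.49 ± 0.12 on the log2 scale and its activator RHEB by 0.42 ± 0.10. DDIT4, which inhibits mTOR complex 1 through the TSC proteins, rose evenly, from 11.2, 12.1 and 12.3 CPM to 24.9, 25.9 and 26.2 CPM (1.11 ± 0.12, adjusted p = 0.00015). FLCN, folliculin, which acts on the same complex through the RAG GTPases, rose by 0.84 ± 0.20 (adjusted p = 0.0083).

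Most tested genes of the cell cycle lists were called lower. Of 27 tested G1 cyclins, kinases, inhibitors and E2F genes, 15 fell, 1 rose and 11 were not called (12 and 0 without crizotinib library 2). CDK6, the kinase that D cyclins activate, went from 287, 255 and 248 CPM to 132, 86.3 and 120 CPM (-1.22 ± 0.14, adjusted p = 0.00032). CDK4, its paralog, was at 24.6, 26.8 and 27.2 CPM and 25.1, 22.0 and 24.1 CPM (-0.14 ± 0.14, adjusted p = 0.41), with overlapping groups. Cyclin E2 (CCNE2) fell from 9.43, 9.02 and 10.7 CPM to 6.70, 2.74 and 3.69 CPM (-1.15 ± 0.25, adjusted p = 0.0058). The late E2F genes E2F7 (-1.20 ± 0.17) and E2F8 (-1.22 ± 0.25) fell, whereas E2F1 (-0.09 ± 0.16, adjusted p = 0.68) was not called. The retinoblastoma family fell too, with RBL1 at -1.04 ± 0.17 and RB1 at -1.16 ± 0.28. CDKN1C was the 1 gene called higher (1.18 ± 0.30), and its call was lost without crizotinib library 2 (0.84) and with the GC and length offset (0.61). CDKN1A, the p21 inhibitor, differed by -0.26 ± 0.12 (adjusted p = 0.095).

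Of 49 genes of DNA replication and S phase, all tested, 35 fell, 0 rose and 14 were not called by edgeR (median -0.405; 1 higher at an unadjusted p under 0.05, 0 by DESeq2 and 0 by limma-voom), and 32 fell and 0 rose without crizotinib library 2. With the GC and length offset 39 fell. The promoters of 3 genes that fell are shown because E2F factors read TTTGGCGC and TTTCGCGC, which are in capitals on either strand in the 150 bases before the RefSeq start (GRCh38.p14, coding strand, 5′ to 3′).
MCM6 chr2:135876444-135876593 (minus strand): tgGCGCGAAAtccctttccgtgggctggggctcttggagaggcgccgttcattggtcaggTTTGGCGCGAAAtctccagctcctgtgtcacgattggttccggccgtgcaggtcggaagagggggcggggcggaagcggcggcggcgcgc
RBL1 chr20:37095998-37096147 (minus strand): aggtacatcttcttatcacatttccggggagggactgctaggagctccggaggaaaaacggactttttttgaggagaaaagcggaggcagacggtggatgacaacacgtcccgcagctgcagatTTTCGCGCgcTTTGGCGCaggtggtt
POLA1 chrX:24693768-24693917: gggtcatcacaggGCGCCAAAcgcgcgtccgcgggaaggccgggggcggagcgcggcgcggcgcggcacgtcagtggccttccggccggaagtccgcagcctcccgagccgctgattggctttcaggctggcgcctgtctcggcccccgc

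Either E2F motif was in 12 of 42 S phase promoters found in RefSeq (28.6%), in 3 of 52 promoters of G2 and mitosis genes (5.77%), in 4 of 33 homologous recombination and Fanconi promoters (12.1%) and in 1.98% of the promoters of tested genes. In MCM6 the 2 motifs overlapped, starting 90 and 86 bases before the start, with another match from 148 bases. In RBL1 they started 26 and 16 bases before the start. These windows were also chosen after the sequences had been seen.

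MCM6, a subunit of the replicative helicase, went from 388, 368 and 377 CPM to 265, 218 and 249 CPM (-0.63 ± 0.10, adjusted p = 0.002). POLA1, the catalytic subunit of the priming polymerase, went from 125, 116 and 125 CPM to 73.6, 69.8 and 75.4 CPM (-0.74 ± 0.11, adjusted p = 0.0015). MCM10, which helps start replication forks, went from 33.7, 34.5 and 34.9 CPM to 17.6, 15.8 and 16.1 CPM (-1.06 ± 0.11, adjusted p = 8.4e-05). In these genes the 3 crizotinib libraries were close together and no group overlapped. The ribonucleotide reductase gene RRM1 behaved likewise, with 145, 138 and 145 CPM in control and 87.3, 80.5 and 86.9 CPM with crizotinib (-0.75 ± 0.09, adjusted p = 0.00034). PCNA, the sliding clamp, fell less (-0.40 ± 0.09), and so did thymidylate synthase, TYMS (-0.46 ± 0.10). Of 54 replication-dependent histone genes 23 were tested, with 2 lower, 0 higher and a median of -0.38. Both histone calls were absent without crizotinib library 2, where the list median was -0.448. They were also lost without control library 2 or 3. With the GC and length offset 8 histone genes fell and 0 rose (median -0.685).

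Of 60 genes of G2 and mitosis, all tested, 42 fell, 2 rose and 16 were not called (median -0.50, 38 and 0 without crizotinib library 2). ECT2, which places the cleavage furrow, went from 246, 227 and 242 CPM to 127, 81.8 and 114 CPM (-1.15 ± 0.17, adjusted p = 0.0013). The spindle checkpoint gene MAD2L1 went from 91.4, 88.9 and 97.9 CPM to 53.5, 53.7 and 53 CPM (-0.80 ± 0.12, adjusted p = 0.0012), with the crizotinib libraries close together. CDK1 (-0.94 ± 0.18), cyclin A2 (CCNA2, -0.91 ± 0.15), FOXM1 (-0.57 ± 0.10) and MKI67 (-0.71 ± 0.13) fell. PLK1 was called at -0.31 ± 0.11 (adjusted p = 0.044) and lost its call in 9 of 17 alternatives. Of 37 genes of homologous recombination and the Fanconi pathway, 23 fell, 1 rose and 13 were not called (21 and 1 without crizotinib library 2). BRCA2, a mediator of homologous recombination, fell from 65.2, 59.4 and 61.1 CPM to 35.1, 20.4 and 28.3 CPM (-1.15 ± 0.17, adjusted p = 0.0013). FANCI, a subunit of the crosslink repair clamp, changed evenly, from 228, 229 and 222 CPM to 145, 154 and 145 CPM (-0.61 ± 0.09, adjusted p = 0.0012). BRCA1 fell by 0.48 ± 0.09, a call lost with the GC and length offset (-0.09).

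**Figure D2:**
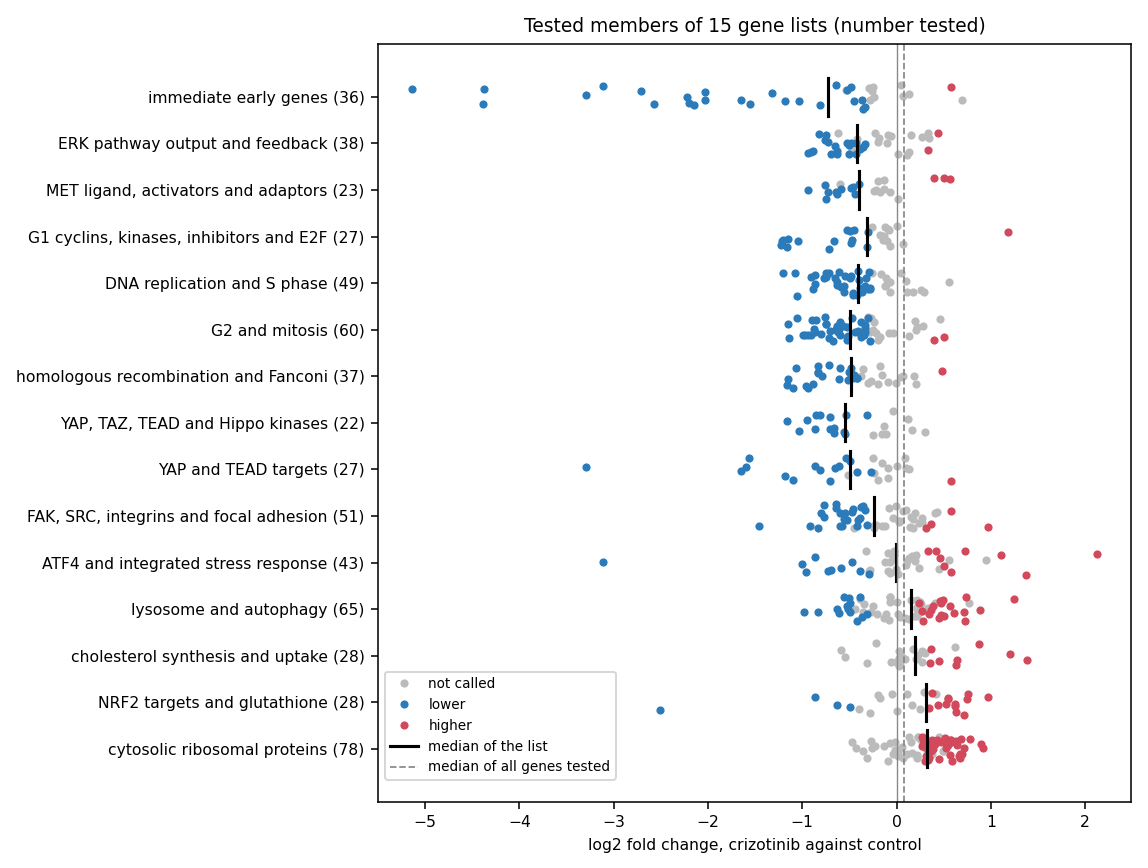
Log2 fold change of every tested member of 15 gene lists (number tested in brackets), coloured by call, with the median of each list as a black bar and the median of all genes tested (0.084) as a dashed line. The immediate early genes reach down to -5.13 (ATF3), 0 of 49 S phase genes are called higher, and 0 of 78 ribosomal protein genes are called lower.

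The transcriptional repressor gene BCL6 rose evenly. BCL6 (chromosome 3, 187721377 to 187745727), a target of FOXO factors in textbook accounts, stood at 112, 118 and 105 CPM in control and at 253, 294 and 254 CPM with crizotinib (1.26 ± 0.13, adjusted p = 9.6e-05). Among 27 tested FOXO factors and targets, 7 rose, 7 fell and 13 were not called, so the list had no single direction (7 and 3 without crizotinib library 2). The shares were 25.9% each way, against 20% higher and 17.6% lower of all genes. FOXO4 rose from 6.58, 5.45 and 7.66 CPM to 12.2, 13.3 and 11.1 CPM (0.89 ± 0.14, adjusted p = 0.002), and the death ligand gene TNFSF10 rose by 0.61 ± 0.12. CITED2, a coactivator that competes with hypoxia-inducible factor for p300, fell from 58.6, 60.3 and 60.1 CPM to 19.0, 14.8 and 17.2 CPM (-1.81 ± 0.13, adjusted p = 2.5e-06). PDK4, which blocks entry of pyruvate into the citric acid cycle, fell by 0.79 ± 0.14 (adjusted p = 0.0027). CITED2 and BCL6 lay apart from control in opposite directions with little spread.

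In the BCL2 family 4 of 18 tested genes rose and 4 fell (2 and 1 without crizotinib library 2), shares of 22.2% each, near those of all genes. MCL1, an antiapoptotic member with a short-lived mRNA, went from 442, 468 and 472 CPM to 285, 216 and 288 CPM (-0.81 ± 0.12, adjusted p = 0.0012). BMF, a proapoptotic BH3-only member at low level, rose from 1.05, 1.21 and 0.798 CPM to 2.61, 2.11 and 2.23 CPM (1.19 ± 0.22, adjusted p = 0.0035). BCL2L11, the BH3-only gene BIM, was called lower (-0.64 ± 0.23, adjusted p = 0.047), with the call lost without any one of 5 of the 6 compared libraries: control 1 (-0.53), 2 (-0.67) and 3 (-0.75) and crizotinib 2 (-0.37) and 3 (-0.63). Of 31 p53 targets 9 fell and 3 rose, and without crizotinib library 2 only 4 fell and 1 rose. The share called, 38.7%, was near the 37.6% of all genes. It was 29% lower and 9.68% higher, against 17.6% and 20% of all genes.

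Of 43 tested genes of the integrated stress response, 9 rose, 10 fell and 24 were not called (median -0.006; 5 and 8 without crizotinib library 2). The shares of 20.9% and 23.3% were near the 20% and 17.6% of all genes. NUPR1, a small stress coregulator, rose from 0.673, 0.908 and 0.798 CPM to 2.73, 4.91 and 2.86 CPM (2.12 ± 0.31, adjusted p = 0.0013). CBS, which makes cystathionine from homocysteine, rose from 11.1, 13.3 and 12.3 CPM to 34.0, 44.9 and 16.3 CPM (1.37 ± 0.32, adjusted p = 0.0074), with crizotinib library 3 near control. The amino acid transporter genes SLC38A2 (-0.96 ± 0.20) and SLC7A11 (-0.86 ± 0.18) and the serine synthesis gene PSAT1 (-0.47 ± 0.12) fell. Textbook accounts list all 3 as genes that ATF4 induces, and the part of ATF4 here was not tested. ATF4 itself was called at 0.42 ± 0.13 (adjusted p = 0.022), a call lost without crizotinib library 2 (0.26), control library 2 (0.39) or control library 3 (0.35) and with the GC and length offset (0.05). Of 26 genes of the unfolded protein response 11 fell and 1 rose, but without crizotinib library 2 the counts were 5 and 0. With all libraries the shares were 42.3% lower and 3.85% higher, against 17.6% and 20% of all genes.

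Genes of lipid synthesis moved both ways. SREBF1, whose product activates fatty acid and sterol synthesis genes, went from 76.5, 83.0 and 76.8 CPM to 136, 154 and 134 CPM (0.85 ± 0.10, adjusted p = 0.00028). SCD, which introduces the double bond of oleate, went from 831, 742 and 822 CPM to 1400, 1029 and 1250 CPM (0.62 ± 0.13, adjusted p = 0.0049), with library 2 the nearest to control. Of 24 tested fatty acid genes 8 rose and 5 fell (5 and 5 without crizotinib library 2). These shares were 33.3% higher and 20.8% lower, against 20% and 17.6% of all genes. MLXIPL (1.46 ± 0.31) and ACACB (0.64 ± 0.13) rose, and ACLY, which makes cytosolic acetyl-CoA, fell by 0.61 ± 0.14. Of 28 genes of cholesterol synthesis and uptake 8 rose, 0 fell and 20 were not called. Without crizotinib library 2 the counts were 6 and 0, and with the GC and length offset 6 and 1. The share called higher was 28.6%, against 20% of all genes. INSIG1, which retains the sterol sensor in the endoplasmic reticulum, rose from 12, 11 and 13.7 CPM to 19.5, 15.3 and 22.1 CPM (0.63 ± 0.15, adjusted p = 0.008). MVD, a mevalonate pathway enzyme, went from 11.8, 13 and 10.3 CPM to 20.3, 48.0 and 23.4 CPM (1.39 ± 0.29, adjusted p = 0.0048), with the largest value in library 2 and a change of 0.82 to 1.62 over the alternatives. Of 65 lysosome and autophagy genes 19 rose and 14 fell, against 12 and 4 without crizotinib library 2. In the main fit the shares were 29.2% higher and 21.5% lower, against 20% and 17.6% of all genes. The balance depended on the fit. DESeq2 called 15 higher and 18 lower, and a fit of only the 6 libraries compared 10 and 11. With the GC and length offset 13 rose and 10 fell (median 0.011). Through every alternative that tested them, 2 genes kept a higher call and 1 a lower call. ULK1, which starts autophagy, rose by 0.89 ± 0.18 and the protease gene CTSD from 82.4, 79.6 and 85.6 CPM to 123, 294 and 168 CPM (1.24 ± 0.30, adjusted p = 0.0089).

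YAP1 and its paralog WWTR1, which carry Hippo signals into the nucleus, changed by -0.54 ± 0.15 (adjusted p = 0.017) and -0.66 ± 0.13, and the YAP1 call was lost without control library 1 (-0.49). Of 22 tested YAP, TAZ, TEAD and Hippo kinase genes 14 fell and 0 rose (12 and 0 without crizotinib library 2). Of 27 YAP and TEAD targets 15 fell, 1 rose and 11 were not called (14 and 1 without crizotinib library 2). CCN1, a secreted matricellular protein, went from 141, 155 and 155 CPM to 51.4, 40.6 and 51.6 CPM (-1.65 ± 0.13, adjusted p = 5.8e-06). AMOTL2, which binds YAP, went from 56.8, 57.8 and 57.9 CPM to 31.8, 31.4 and 35.2 CPM (-0.81 ± 0.09, adjusted p = 0.00026). These target genes fell with close crizotinib libraries, whereas the cofactor VGLL3 had 629, 221 and 454 CPM against 1015, 945 and 966 CPM in control (-1.17 ± 0.29, adjusted p = 0.0093). EDN1 was the target that rose (0.58 ± 0.14). The TEAD letters GGAATG were in 7 of 18 target promoters found in RefSeq (38.9%) and in 10.9% of those of tested genes. CCN1 is also counted among the immediate early genes.

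Of 51 focal adhesion genes 23 fell, 4 rose and 24 were not called (16 and 1 without crizotinib library 2). These shares were 45.1% lower and 7.84% higher, against 17.6% and 20% of all genes. PTK2, which encodes FAK, went from 356, 350 and 357 CPM to 296, 180 and 237 CPM (-0.58 ± 0.15, adjusted p = 0.012). The collagen receptor gene ITGA1 went from 1587, 1436 and 1570 CPM to 1059, 535 and 834 CPM (-0.92 ± 0.21, adjusted p = 0.0065), and its partner ITGB1 fell by 0.64 ± 0.16. RHOC, a GTPase of actomyosin contraction, rose by 0.97 ± 0.24 (adjusted p = 0.0087), with 86.0, 199 and 121 CPM against 67.5 to 70.5 CPM in control. CDH1, E-cadherin, stood at 5.54, 4.24 and 5.85 CPM in control and 3.2, 3.42 and 3.18 CPM with crizotinib (-0.67 ± 0.20, adjusted p = 0.021). Its call was lost without control library 1 (-0.61) or 3 (-0.63) or crizotinib library 3 (-0.64). The tight junction gene CLDN4 rose from 1.42, 1.88 and 1.6 CPM to 4.21, 3.94 and 3.18 CPM (1.20 ± 0.23, adjusted p = 0.0039). CLDN1, another tight junction gene, was called lower in the main fit and in all 17 alternatives (-0.64 to -0.36). Of 24 tested cadherin, catenin and EMT genes 10 fell and 4 rose (4 and 2 without crizotinib library 2). These shares were 41.7% and 16.7%, against 17.6% and 20% of all genes.

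In the thioredoxin and peroxiredoxin list 7 of 26 tested genes rose and 3 fell, but without crizotinib library 2 only 1 rose and 1 fell. The share called in either direction, 38.5%, was near the 37.6% of all genes. With all libraries it was 26.9% higher and 11.5% lower, against 20% and 17.6% of all genes. TXN, thioredoxin itself, was at 111, 102 and 122 CPM in control and 103, 80.3 and 98.9 CPM with crizotinib (-0.25 ± 0.11, adjusted p = 0.096), and the groups overlapped. TXNRD1, its reductase, fell by 0.55 ± 0.14 (adjusted p = 0.011), and TXNIP, which binds thioredoxin, rose by 0.41 ± 0.11 (adjusted p = 0.015), a call lost without control library 2 (0.32). PRDX5, a peroxiredoxin, had 108, 257 and 138 CPM against 70.2 to 80.1 CPM in control (1.18 ± 0.30, adjusted p = 0.011), and lost its call without crizotinib library 2 (0.73). Of 28 NRF2 and glutathione genes 13 rose and 4 fell (10 and 3 without crizotinib library 2). These shares were 46.4% higher and 14.3% lower, against 20% and 17.6% of all genes. With the GC and length offset 7 rose and 5 fell. The list median was 0.317 in the main fit and 0.033 with that offset, where the median of all genes was 0.012. The aldo-keto reductase genes AKR1C1 (797, 773 and 837 CPM to 1164, 1300 and 1265 CPM, 0.63 ± 0.10) and AKR1C2 (0.75 ± 0.09, adjusted p = 0.00051) rose evenly, though reads of these near-identical paralogs may be shared between them. NFE2L2, which encodes NRF2, was called lower (-0.50 ± 0.15), and lost that call when control library 1 (-0.45) or crizotinib library 2 (-0.35) was left out.

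Of 22 tested NF-kB factors, inhibitors and chemokines, 7 fell, 1 rose and 14 were not called (8 and 0 without crizotinib library 2). The share called in either direction, 36.4%, was near the 37.6% of all genes. It was 31.8% lower and 4.55% higher, against 17.6% and 20% of all genes. NFKBIZ, an inducible nuclear cofactor, went from 12.3, 16 and 14.8 CPM to 6.40, 4.85 and 4.96 CPM (-1.41 ± 0.15, adjusted p = 0.00016). IL6, the cytokine gene, went from 27.7, 35.9 and 36.5 CPM to 18.1, 12.3 and 18.6 CPM (-1.03 ± 0.16, adjusted p = 0.0013). TNFAIP3, the feedback inhibitor A20, changed by -1.78 ± 0.26 and the chemokine gene CXCL2 by -1.06 ± 0.19. Receptor genes of the interleukin-6 family moved both ways. LIFR (-1.10 ± 0.21) and OSMR (-0.82 ± 0.20) fell, and the shared subunit gene IL6ST was called lower (-0.78 ± 0.26), which did not hold without control library 1 (-0.73), 2 (-0.83) or 3 (-0.82) or crizotinib library 2 (-0.49) or 3 (-0.79). IL6R, the interleukin-6 receptor itself, was called higher, from 5.54, 6.11 and 7.24 CPM to 8.47, 10.2 and 8.97 CPM (0.54 ± 0.15, adjusted p = 0.013), which did not hold without control library 1 (0.48) or crizotinib library 2 (0.46). PTGS2, cyclooxygenase 2, went from 126, 131 and 134 CPM to 58.1, 28.7 and 49.8 CPM (-1.52 ± 0.24, adjusted p = 0.0018), with library 2 the lowest. Of 18 clock genes 5 fell and 3 rose, PER1 at -1.09 ± 0.20 and CRY1 at -0.73 ± 0.15 among those lower. These shares were 27.8% lower and 16.7% higher, against 17.6% and 20% of all genes.

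Ribosomal protein genes rose in number, but the count varied with the fit. Of 78 tested, 41 rose, 0 fell and 37 were not called (median 0.32). A fit of only the 6 libraries compared called 17 higher and 0 lower, DESeq2 28 and 1, and limma-voom 39 and 0. Without crizotinib library 2, 8 rose and 0 fell (median 0.217). Of all genes, 1770 of 17457 tested rose in that setting (median 0.059). With the GC and length offset 19 rose and 4 fell. RPL18, a protein of the large subunit, stood at 307, 321 and 324 CPM in control and at 401, 855 and 545 CPM with crizotinib (0.92 ± 0.23, adjusted p = 0.0095). RPS4X, of the small subunit, went from 967, 952 and 1050 CPM to 1125, 1738 and 1409 CPM (0.52 ± 0.13, adjusted p = 0.0095). In both genes library 2 was the highest, and processed pseudogenes may share their reads. Of 40 ribosome biogenesis genes 13 fell and 1 rose (12 and 0 without crizotinib library 2). These shares were 32.5% and 2.5%, against 17.6% and 20% of all genes. NOLC1, a nucleolar phosphoprotein, fell evenly, from 329, 327 and 348 CPM to 222, 184 and 212 CPM (-0.70 ± 0.10, adjusted p = 0.0013). Of 15 mitochondrially encoded genes 0 were called by edgeR (3 lower at an unadjusted p under 0.05, 1 lower by DESeq2 and 2 by limma-voom; median -0.43, and -0.13 without crizotinib library 2). MT-ATP8, a subunit of the ATP synthase, was at 448, 481 and 567 CPM in control and at 431, 44.2 and 154 CPM with crizotinib (-1.25 ± 0.54, adjusted p = 0.079). Crizotinib library 1 lay close below the lowest control library and library 2 far below it.

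**Figure D3:**
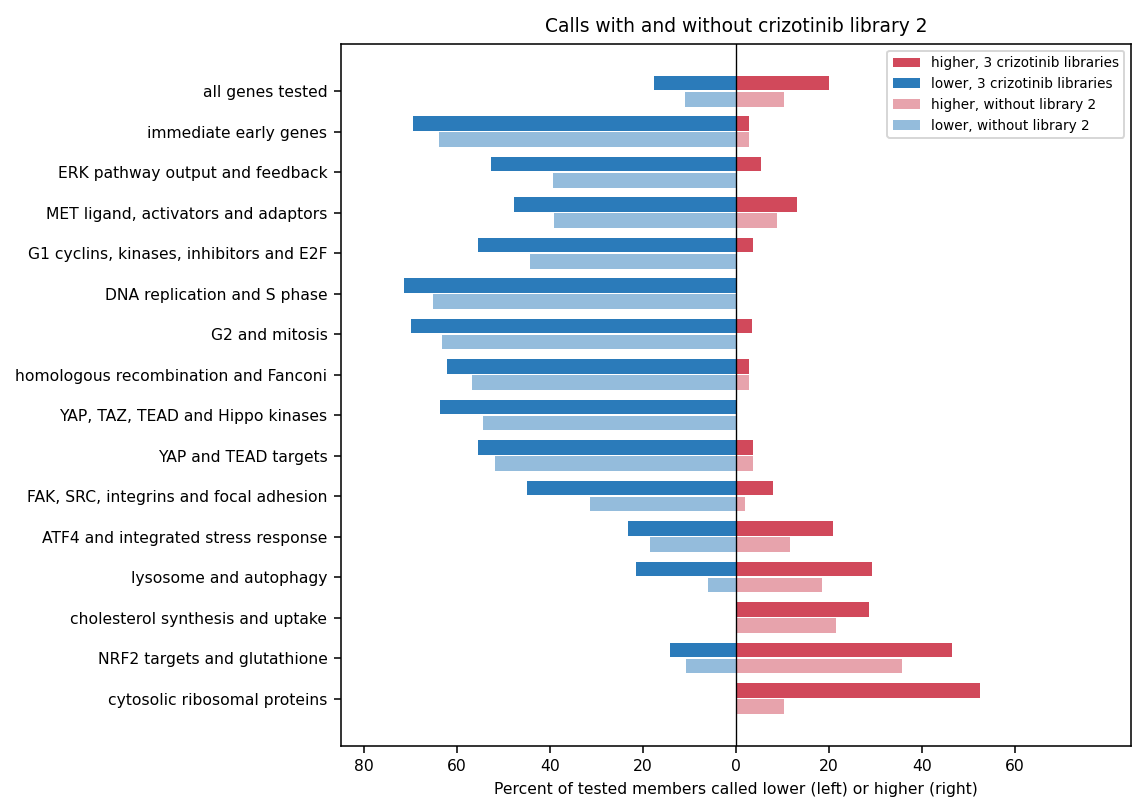
Percent of tested members called lower (left) or higher (right) for all genes and 15 lists, with 3 crizotinib libraries (dark) and without crizotinib library 2 (pale). Falls of immediate early genes go from 25 to 23 of 36, whereas rises of ribosomal protein genes go from 41 to 8 of 78.

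Across called genes, crizotinib library 2 was the farthest from the control mean in 81.2% of the 3421 higher and 89.3% of the 3014 lower genes. The median log2 difference from control was 0.562, 1.082 and 0.659 in libraries 1, 2 and 3 for higher genes and -0.386, -0.892 and -0.505 for lower genes. The share of mitochondrial reads was lowest in the same library, and its part in these differences was not tested. With mitochondrially encoded genes removed before scaling, 3041 genes were called higher and 3444 lower. BCL6, DDIT4, SREBF1, MCM10, RRM1, MAD2L1, AMOTL2 and FANCI, chosen after their values were seen, had nearly equal levels in the 3 libraries. CTSD, MVD, EBP, PRDX5, RPL18, EGFR, RB1 and VGLL3, chosen in the same way, had their most extreme value in library 2. EBP, the sterol isomerase gene, was at 32.6, 88.2 and 50.9 CPM against 24.5 to 25.6 CPM in control (1.20 ± 0.28), and RB1 at 85.5, 31.2 and 60.3 CPM against 128 to 133 CPM.

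**Figure D4:**
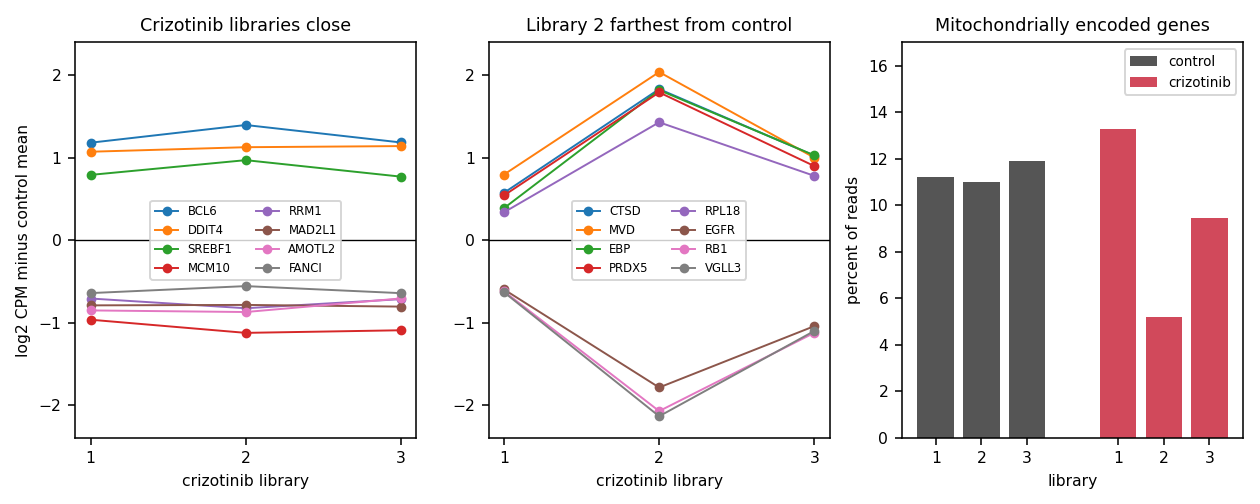
Left and middle, log2 CPM of each crizotinib library minus the control mean for 8 genes with close libraries and 8 genes whose library 2 lies farthest from control. Right, percent of reads from mitochondrially encoded genes in each library, 5.21% in crizotinib library 2 and 11 to 11.9% in control.

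Long non-coding genes leaned upward, with 730 higher and 74 lower of 2618 tested (median 0.49), against 2267 and 2862 of 12491 protein-coding genes (median -0.020). The shares were 27.9% higher and 2.83% lower, against 20% and 17.6% of all genes. The lean was not particular to this class. Pseudogenes had 251 higher and 52 lower of 1322 (median 0.34), and other non-coding classes 110 and 22 of 440 (0.419). Genes not in GENCODE 29 had 63 and 4 of 225 (0.522). NEAT1, the scaffold of paraspeckles, went from 658, 899 and 602 CPM to 3242, 3267 and 2707 CPM (2.09 ± 0.17, adjusted p = 1.3e-05), with even libraries. MALAT1, its neighbour on chromosome 11, rose less (0.51 ± 0.14), a call lost without control library 1 (0.43). The largest rise among genes above a mean log2 CPM of 1 was the pseudogene IGFL1P1 on chromosome 19, from 5.09, 7.56 and 5.00 CPM to 25.3, 55.7 and 31.6 CPM (2.67 ± 0.32, adjusted p = 0.00037). It lies within the span of the antisense gene IGFL2-AS1 (46189166 to 46203083), which rose from 32.8, 41.0 and 31.5 CPM to 94.9, 123 and 93.5 CPM (1.57 ± 0.16, adjusted p = 0.00011). The strand setting of the counting was not given in the sources used here, so reads of these overlapping genes may not be told apart. The gastric mucin gene MUC6 rose from 2.24, 3.33 and 2.29 CPM to 8.36, 15 and 5.86 CPM (1.89 ± 0.37, adjusted p = 0.004). PECAM1, an endothelial adhesion gene, rose from 6.66, 6.53 and 6.33 CPM to 13.3, 19.7 and 16.2 CPM (1.34 ± 0.16, adjusted p = 0.00037). Of the other endothelial markers CDH5 stood at 12.5 CPM of the totals in control and 9.29 with crizotinib, and KDR had 0 reads. CDH5 was called lower (-0.72 to -0.41 over the alternatives), a call lost without control library 1 (-0.47). FTH1, ferritin heavy chain, was called lower (-2.51 ± 0.47), with controls at 47.7, 49.8 and 15.5 CPM and crizotinib at 8.47, 4.85 and 6.43 CPM. Reads of FTH1 may be shared with its many pseudogenes.

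Crizotinib was last compared directly with IN10018, to see which changes differed between the single drugs at 1 µM and 24 h. The contrast called 1974 genes higher and 1764 lower with crizotinib (21.9% of those tested, 11.5% and 10.3%), of which 1.85% and 0.831% of all tested genes changed at least 2-fold. The unadjusted p was under 0.05 for 40.3%, and groups did not overlap for 22.5% and 22.3%. However, a fit of only the 6 libraries concerned called 2 and 2. The fit of the whole series without IN10018 library 1, 2 or 3 called 5 and 8, 8 and 12, or 10 and 14. The same fit without crizotinib library 1, 2 or 3 called 3260 and 3123, 230 and 356, or 19 and 19. Only FOSB, FOS, BCL6 and IGFL2-AS1 were called in all 14 alternatives. FOSB was at 210, 186 and 191 CPM with IN10018, 3.07 ± 0.17 on the log2 scale above its level with crizotinib (adjusted p = 9.9e-07), and FOS at 431, 375 and 414 CPM. BCL6 with IN10018 was at 123, 125 and 110 CPM, and crizotinib exceeded it by 1.16 ± 0.13 (adjusted p = 0.0018), with 1.22 as the highest value over the alternatives. IGFL2-AS1 with IN10018 was at 38.8, 41.1 and 38.5 CPM. For these 4 genes the crizotinib and IN10018 libraries did not overlap.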

How the data were processed

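RNA was sequenced from 12 NUGC-4 libraries, 3 in each of 4 groups, and the control and crizotinib groups (6 libraries) were compared. The authors deposited raw read counts per gene for 60623 genes; Trimmomatic, HISAT2, featureCounts and GRCh38 are named in the submitters' processing notes, without versions. The libraries were prepared with a directional kit, per the labels' protocols, and the strand setting of the counting is not given in the sources used here. Columns were assigned by their names.

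Counts were fitted with edgeR 4.0.16 (R 4.3.3; TMM scaling, filterByExpr, robust quasi-likelihood test, all 12 libraries in 1 fit, no block), leaving 17096 genes, with Benjamini-Hochberg adjustment over all of them and SE taken as the absolute log2 fold change over the square root of F. The p-values of the text are from this fit. Total reads ran from 14361383 to 20489708 per library. DESeq2 1.42.0, limma-voom (limma 3.58.1), other scalings and filters, the compared libraries alone, an offset for GC content and transcript length (a loess curve per library, its form set after the files had been seen) and leaving out each library were alternatives. The fit was tested on simulated data. Gene positions, GC content and length are from GENCODE 29 (96.5% of gene identifiers found), promoter sequences from RefSeq (GRCh38.p14).

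The comparison and the gene lists were chosen with earlier results of these data known. Named genes are the proteins under study (ALK, ROS1, MET, PTK2, CDH1, YAP1, TXN, TXNRD1, TXNIP), the 12 largest called changes each way above a mean log2 CPM of 1 without overlap, the 6 members of each list with the smallest p, all members of lists of at most 15, and the 6 largest each way against IN10018. The text leaves out genes this rule names. Genes named outside it were chosen after their values were seen: ACLY, ATF4, BCL2L11, BRCA1, BTG1, CBS, CCND1, CDK1, CDK4, CDKN1A, CDKN1C, DUSP1, DUSP4, DUSP6, E2F1, EDN1, ETV4, ETV5, FOSL2, GAB1, HGF, IER2, IGFL2-AS1, ITGA1, ITGB1, JUND, KITLG, MAPK3, MCM6, MERTK, MKI67, MTOR, MYC, NFE2L2, PCNA, PECAM1, PLK1, POLA1, PSAT1, PTGS2, RB1, RHEB, RHOC, TYMS, VGLL3, ZFP36 and the marker genes. Some genes of the lists are not reported here by name.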

Additional observations from a re-analysis of the deposited data

How the results depend on the processing

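Of the genes named, 143 were recomputed under the alternatives: 2305 values kept direction and side of the threshold, 81 lost and 30 gained a call. The cause of the changes was not tested. Scaling by library totals left 1948 genes lower in crizotinib against control. Leaving out 1 library moved the genes called higher between 1354 and 4468 and those called lower between 1372 and 3507. The comparison with IN10018 moved from 5 to 3260 higher and from 8 to 3123 lower, and the fit of only its 6 libraries called 2 higher and 2 lower. With the replicate block 3877 genes were higher and 3526 lower against control, and 2921 higher and 2748 lower against IN10018. The labels do not say that equal numbers mark a shared day or culture, and same-numbered crizotinib and control libraries had residual correlations of 0.039, 0.156 and 0.109, so the numbers were not taken to pair the samples. Signs turned in 6 uncalled genes. Library totals gave CCND1 0.027, DUSP6 0.029 and E2F1 0.042, and leaving out 1 library gave CCND1 -0.197 to 0.030, E2F1 -0.234 to 0.040 and HGF -0.277 to 0.125. The GC and length offset gave DUSP6 0.039, HGF 0.345 and MAPK3 -0.312. With only the compared libraries and without crizotinib library 2, a setting added after the data had been seen, HGF was 0.104 and DUSP4 -0.003. Depth limits ALK, KIT, MERTK, KLF4 and NKG7, which were read at low levels.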
